A study of Mus musculus with 17 samples.

Results

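The cytosolic ribosomal protein genes encode the protein subunits of the ribosome that translates messages in the cytoplasm. Members were all genes whose only annotated symbol is Rpl or Rps followed by a digit, together with Rplp0, Rplp1 and Rplp2, without the Rps6k kinases, Rps19bp1 and symbols containing -ps. The rule found 70 genes (46 of the large subunit and 24 of the small subunit) among 17097 named genes, and it used symbols only, not expression. Of a member's probe sets, the one with the highest 17-array mean is given, in log2 RMA units (a background-corrected, normalised probe-set summary). Some cytosolic ribosomal proteins fall outside the rule, such as Rpsa and Fau by their symbols and Rps27 because its probe sets were not annotated to it alone.

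The study compared myeloid leukemias started from different blood progenitors by transformation with Myc and Bcl2. All donors were C57/Bl6 wildtype mice, and the transformed cells were LSK cells (marrow enriched for stem cells, 3 arrays), DN2 cells of the thymus (progenitors at an early step toward T cells, 5 arrays) or marrow granulocyte-macrophage progenitors (GMP, 5 arrays). The leukemic cells were sorted from the spleens of irradiated recipients (4 to 8 weeks old, 4.5 to 6 Gy) as positive for CD11b and Gr1 and negative for CD3, CD4 and CD8. Healthy, untransformed DN2 cells (2 arrays) and GMP (2 arrays) were the controls. The labels do not give the promoter that drove Myc and Bcl2, nor whether replicates came from separate mice or separate transformed cultures, so p-values measure only the spread between these samples.

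Ribosomal proteins are made in near-equal numbers and assembled with ribosomal RNA in the nucleolus, and Myc proteins are known to raise their transcription together with that of ribosome assembly factors. In mammals their messages begin with a cytosine followed by a run of pyrimidines, the 5′ terminal oligopyrimidine (TOP) motif, through which mTOR and the RNA-binding protein Larp1 control their translation and stability. A few members are paralogs of a standard subunit with tissue-restricted or stress-induced expression, such as Rpl3l in muscle, Rpl39l in testis and Rps27l, a p53-induced paralog of Rps27.

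The start sites show a sequence feature that many of these genes share. RefSeq promoter windows of the build GRCm38.p6 were matched by Entrez gene identifier for 56 of the 70 members. Each window below runs from 20 bases before to 20 bases from the first listed start, 5′ to 3′ on the gene's strand. Capitals mark the motif searched, a C followed by at least 4 bases that are each C or T, beginning within 5 bases of the start on that strand. The first set holds the start windows of members among those that differed most in signal between arrays (Rpl14, Rpl12, Rpl22l1 and Rpl36a) and of Rps6, a much-studied target of the mTOR pathway.
Rpl14 (chr9:120571497-120571536, plus strand): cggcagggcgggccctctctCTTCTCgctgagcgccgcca
Rpl12 (chr2:32961692-32961731, plus strand): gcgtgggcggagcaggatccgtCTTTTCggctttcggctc
Rpl22l1 (chr3:28805488-28805527, plus strand): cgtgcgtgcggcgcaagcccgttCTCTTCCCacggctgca
Rpl36a (chrX:134585634-134585673, plus strand): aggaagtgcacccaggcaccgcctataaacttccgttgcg
Rps6 (chr4:86857348-86857387, minus strand): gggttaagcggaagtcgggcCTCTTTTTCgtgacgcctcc

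The second set holds members whose pattern departed from the rest, Rps27l, Rpl7l1, Rpl39l and Rpl3l, and Rpl22, the partner of Rpl22l1.
Rps27l (chr9:66946066-66946105, plus strand): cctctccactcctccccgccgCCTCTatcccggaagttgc
Rpl7l1 (chr17:46782637-46782676, minus strand): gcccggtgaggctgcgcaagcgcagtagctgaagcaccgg
Rpl39l (chr16:10170208-10170247, plus strand): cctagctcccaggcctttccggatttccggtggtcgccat
Rpl3l (chr17:24727806-24727845, plus strand): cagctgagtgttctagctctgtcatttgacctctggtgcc
Rpl22 (chr4:152325706-152325745, plus strand): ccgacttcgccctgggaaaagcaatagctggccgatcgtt

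The pyrimidine motif was present at the start of 25 of the 56 matched members (44.6%), against 4989 of 27025 genes (18.5%) in the promoter table. Among the paralogs shown, Rps27l and Rpl22l1 hold the letters and Rpl7l1, Rpl39l and Rpl3l do not. A listed start can lie several bases from the start used in these cells, and a missing match says only that these letters are not at the listed position. The E-box letters CACGTG, a sequence that Myc can bind and that reads the same on both strands, were in the 300-base window of 5 members (8.93%) and of 1957 genes (7.24%).

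Several measurements of the arrays bear on every comparison below. Mycn, a Myc family gene, read 12.82 on LSK-labelled array 1 but 4.91 and 4.22 on arrays 2 and 3, against 11.58 to 13.15 on the DN2-labelled and GMP-labelled leukemia arrays and 3.96 to 4.58 on healthy cells. Bcl2 followed the same order in the LSK-labelled arrays, at 11.30, 6.75 and 5.27. Myc itself read 5.48 to 6.49 on all 13 leukemia arrays and 10.10 to 10.65 on the 4 healthy arrays. The mean of 5 monocyte genes was 7.60 on LSK-labelled array 1 and 10.56 and 10.65 on arrays 2 and 3. Arrays 2 and 3 labelled LSK therefore lack the high Mycn and Bcl2 of the other leukemia arrays. The main results with that group are given with and without them, where "without" leaves LSK-labelled array 1 alone. The comparisons by probe-set signal, by motif and by marker genes use all 3 arrays. A test on that single array takes its spread from the other groups and assumes that it varies as they do, and with 1 array fewer calls are possible whatever the difference. Among the DN2-labelled arrays, Itgam, which encodes the CD11b of the sort, was near background on arrays 2, 4 and 5 (3.24 to 3.47), and Cd3e read 7.79 to 9.06 against 5.00 to 5.56 elsewhere, although the sort described in the labels was for CD11b and against CD3. The 3′ minus 5′ signal of Gapdh, a measure of RNA integrity, was 0.64, 0.07 and 0.20 on the LSK-labelled arrays and -0.11 to 0.27 on all others. The same measure for actin was 0.90, 0.33 and 0.34 on the LSK-labelled arrays and 0.48 to 1.09 on all others. The array medians lay between 3.80 and 3.86.

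Nearly all members gave close to the strongest signals on the array. The median member stood at percentile 99.6 to 99.8 of all probe sets on every array. The mean signal of 64 members lay between 12.43 and 13.91, near the highest value of any probe set (14.25), where differences can be compressed. Signals of different probe sets do not rank the transcripts by abundance, so each gene is compared only with itself across arrays.

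Rps29, a zinc-binding protein of the small subunit mutated in some families with Diamond-Blackfan anaemia, was the steadiest member. Its values ran from 13.80 to 14.02 over the 17 arrays (SD 0.06, n = 17). Rpl9 (13.23 to 13.50) and Rpl10 (13.35 to 13.64) had the next smallest spreads, with SDs of 0.08 and 0.08 over 17 arrays. Rpl23a, Rps6, the ribosomal substrate of S6 kinases, and Rpl37a had the highest means after Rps29, between 13.79 and 13.82. The largest spreads belonged to Rpl14 (SD 1.10), Rps27l (0.58), Rps15a (0.55), Rpl7l1 (0.54), Rpl36a (0.49) and Rpl22l1 (0.47).

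Only 6 members had a mean of 12 or less. Rpl3l read between 2.82 and 3.40 on every array, below the median of all values (3.83), and was the only member not tested. Rpl39l was near that median on most arrays. It read 3.47 to 3.76 on the LSK-labelled arrays, 3.16 to 3.58 on 4 DN2-labelled arrays and 4.39 on the fifth, and 3.36 to 3.68 on 4 GMP-labelled arrays and 4.77 on the fifth. The healthy arrays read 3.92 to 4.09 for Rpl39l, within the range of the leukemia arrays. Rpl14 (mean 8.72) and Rps15a (5.50) encode standard subunits and each had a single usable probe set, so their low signal describes that probe set. Rps15a read 6.64 on LSK-labelled array 1, 4.61 and 4.59 on arrays 2 and 3, and 4.88 to 6.21 elsewhere, so array 1 was its highest and arrays 2 and 3 its lowest. Rpl7l1 (9.22) and Rps27l (11.69) complete the list.

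**Figure D1:**
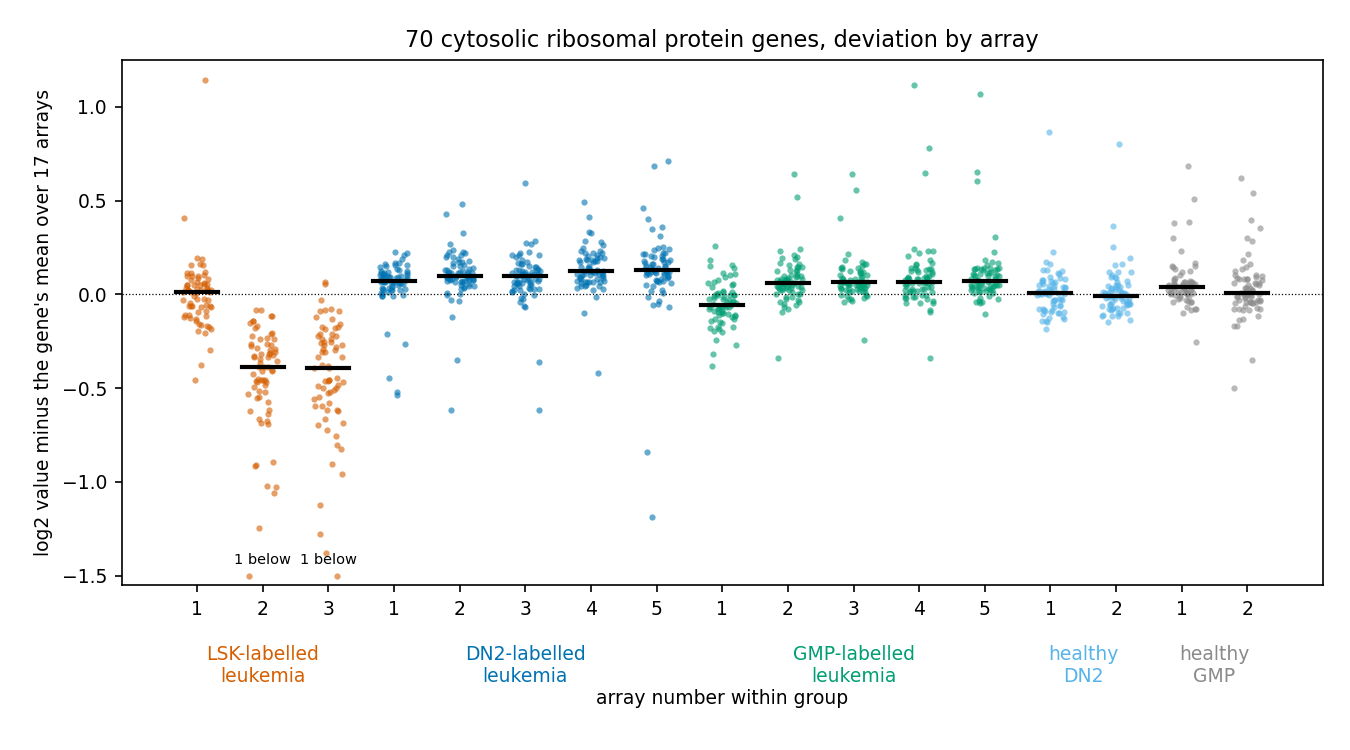
Each point is 1 of the 70 ribosomal protein genes on 1 array, as its log2 value minus its own mean over the 17 arrays, and black bars are the array medians. LSK-labelled arrays 2 and 3 sit at -0.39 while every other array median lies between -0.05 and 0.13, and 1 gene on each of these arrays, Rpl14, lies below the plotted range and is drawn at its edge.

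As a group, ribosomal protein signals were almost flat over 15 arrays and lower on LSK-labelled arrays 2 and 3. The median deviation of the members from their own mean was -0.39 on LSK-labelled array 2, where 70 of 70 members were below their mean, and -0.39 on array 3, where 68 of 70 were. On LSK-labelled array 1 it was 0.01. The 5 DN2-labelled arrays read 0.07 to 0.13, the highest of any group. The GMP-labelled arrays read -0.05 to 0.07, the healthy DN2 arrays -0.01 and 0.01, and the healthy GMP arrays 0.01 and 0.04. LSK-labelled arrays 2 and 3 were the lowest 2 of the 17 arrays for 61 of the 70 members. LSK-labelled array 1 fell within the range of the 14 arrays of the other groups for 47 members, below it for 17 and above it for 6. The same counts were not made over all genes, so whether ribosomal protein genes differ from others in this is not shown. In such bulk samples, fewer cells with high ribosomal protein expression and less of these transcripts per cell cannot be told apart.

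**Figure D2:**
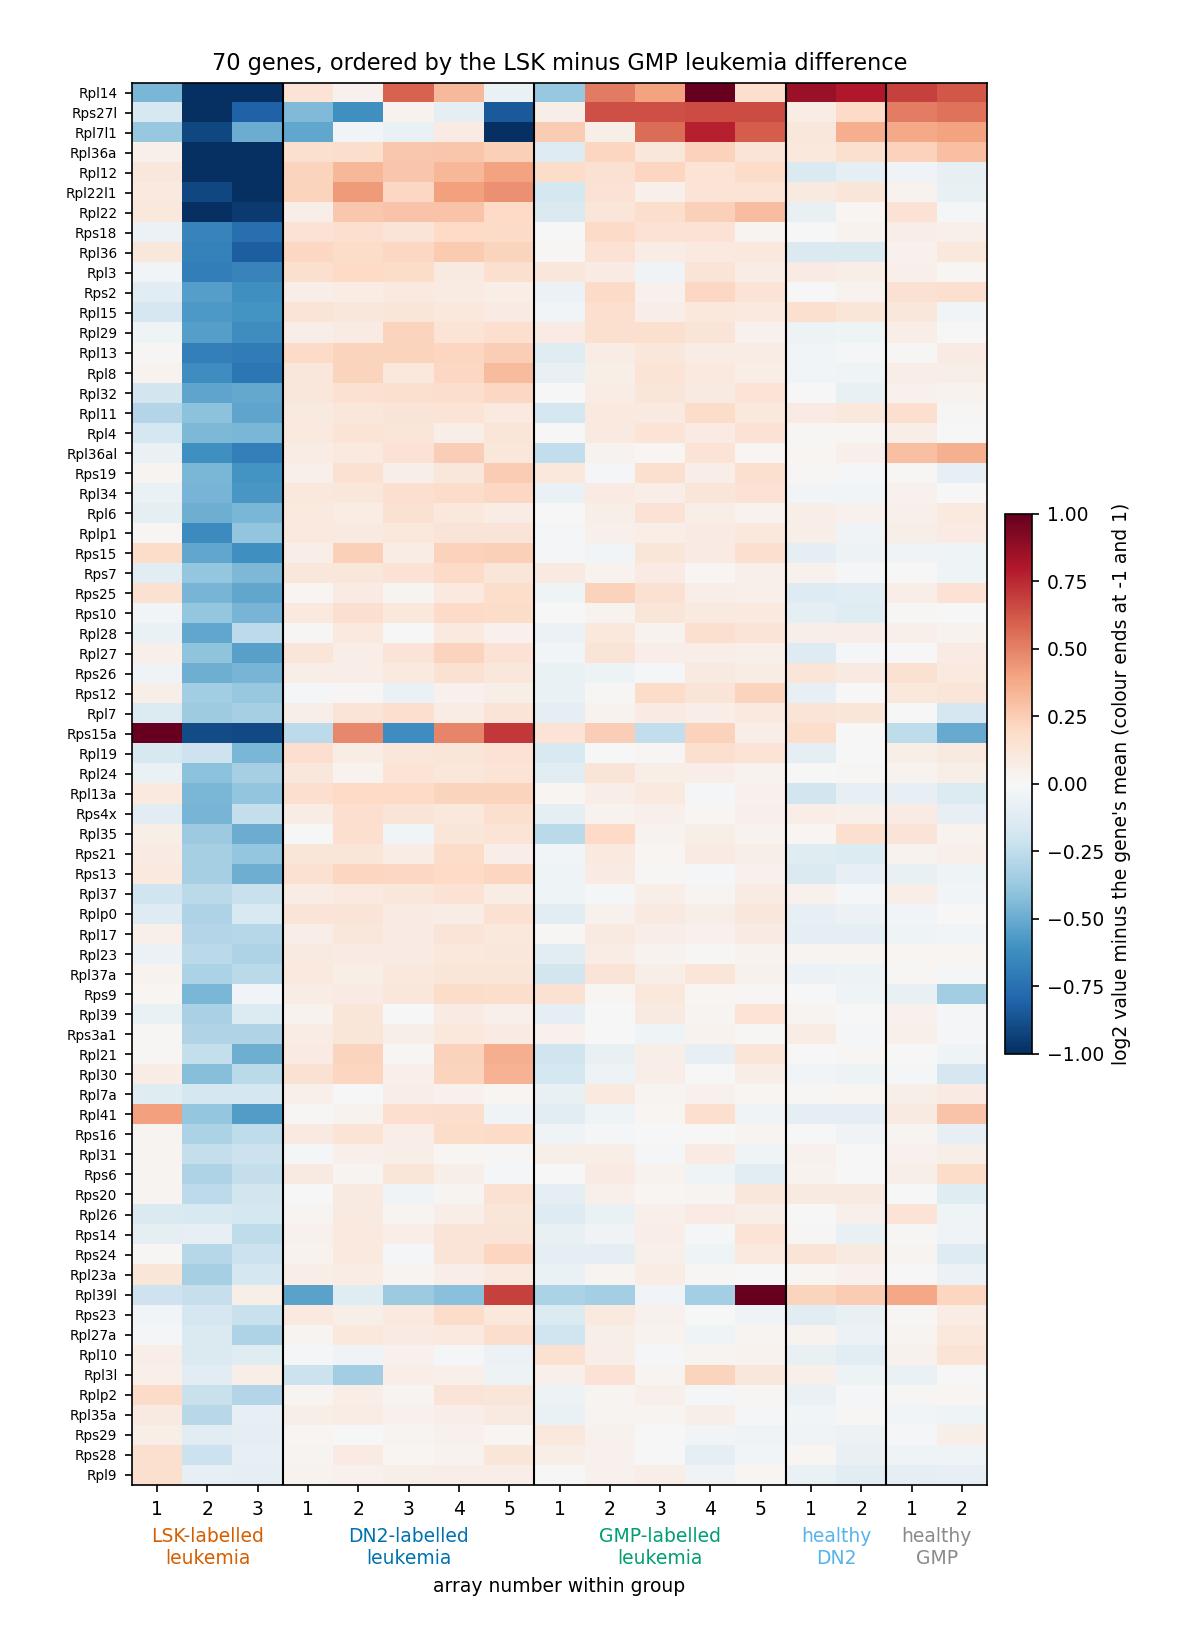
Rows are the 70 genes, ordered by the difference between the LSK-labelled and GMP-labelled leukemia means, and columns are the 17 arrays; colour is the log2 value minus the gene's mean, ending at 1 in either direction. The blue block of LSK-labelled arrays 2 and 3 is darkest from Rpl14 to Rpl22 at the top and palest toward Rpl9 at the bottom, and Rps27l, Rpl7l1, Rps15a and Rpl39l show other patterns.

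The first comparison asks how the LSK-labelled leukemia differed from the GMP-labelled leukemia. Of 69 members tested, 27 were lower and 0 higher in the LSK-labelled arrays (limma with Benjamini-Hochberg adjustment over 11625 genes, adjusted p under 0.05), where 16.5% of all genes were called lower and 10.3% higher (26.7% in all). The difference was negative for 69 of 69 members, with a median of -0.30 log2 units against -0.06 for all genes. By subunit, 21 of 45 large-subunit and 6 of 24 small-subunit members were lower, with medians of -0.30 and -0.27. Without LSK-labelled arrays 2 and 3, the median moved from -0.30 to -0.04. The count of members called was 8 without array 2, 9 without array 3 and 45 without array 1. It was 3 (Rpl14, Rps27l and Rpl7l1) when only the 2 compared groups were fitted. Shares of all genes called under these settings are not given here. Whether the change in calls was particular to the members or general is therefore not shown. Among marker genes, 4 of 5 for monocytes (median 4.37), 3 of 4 for B and plasma cells (median 3.05) and 3 of 5 for NK cells (median 1.86) were called higher in the LSK-labelled arrays, 1 of 5 for promyelocytes was lower, and 0 of 8 for late neutrophils were called. The part of these cell types in the member differences was not tested. Set against the mean of the GMP-labelled arrays, LSK-labelled array 1 was lower for 43 of 70 members (median -0.04), array 2 for 70 (median -0.44) and array 3 for 69 (median -0.45).

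**Figure D3:**
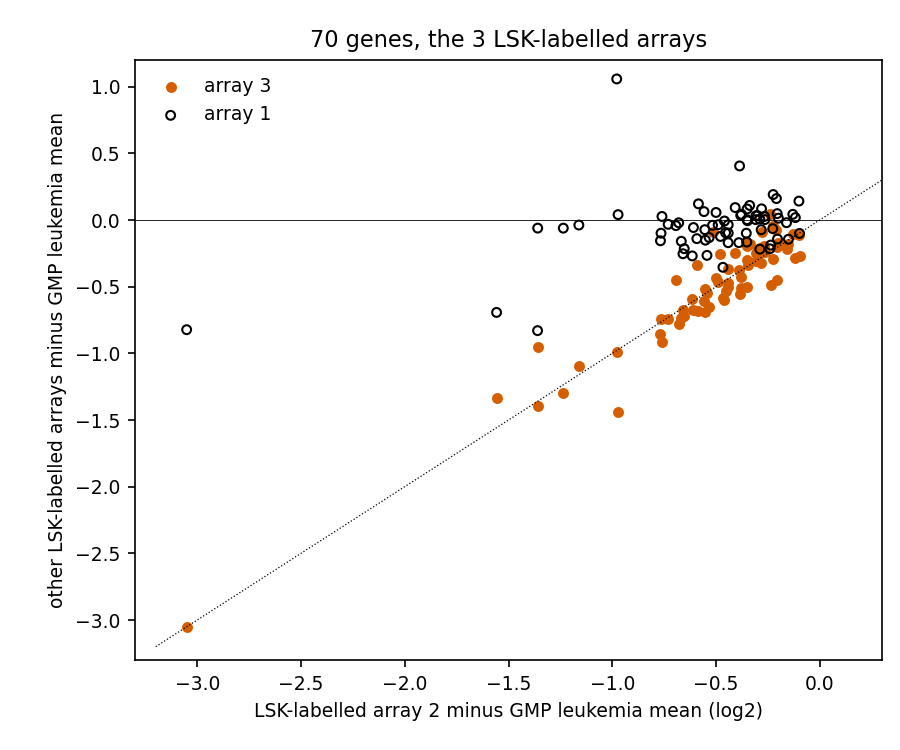
Each gene is placed by its difference from the GMP-labelled leukemia mean on LSK-labelled array 2 (horizontal, log2) and on array 3 (filled) or array 1 (open) on the vertical axis, with the line of equality dotted. Filled points follow the line down to Rpl14 at -3.05, while most open points scatter around 0, with Rpl7l1 (-0.83), Rpl14 (-0.82) and Rps27l (-0.69) lowest and Rps15a (1.06) highest.

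The DN2-labelled leukemia was compared with the same LSK-labelled arrays, so both comparisons share them. There, 42 of 69 members were higher and 0 lower in the DN2-labelled arrays, where 28.4% of all genes were called higher and 19.1% lower (47.4% in all). The median member difference was 0.37, against 0.11 for all genes. Marker genes moved with it, with 6 of 6 for T cells and 3 of 5 for NK cells higher in the DN2-labelled arrays, and 8 of 8 for late neutrophils, 5 of 5 for promyelocytes, 5 of 5 for monocytes (median -4.74) and 3 of 4 for B and plasma cells lower, and their part in the member differences was not tested. Without LSK-labelled arrays 2 and 3, the median was 0.12. Without the DN2-labelled arrays with Itgam near background (2, 4 and 5), 18 members were called. Leaving out single arrays moved the count from 27 (without LSK-labelled array 2) to 56 (without LSK-labelled array 1). Shares of all genes under these settings are again not given beside the counts.

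The P stalk, formed by Rplp0, Rplp1 and Rplp2, binds the elongation factors that drive translation. Rplp1 read 13.50, 12.85 and 13.09 on the LSK-labelled arrays, 13.58 to 13.62 on the DN2-labelled arrays and 13.47 to 13.59 on the GMP-labelled arrays. Arrays 2 and 3 were below every other leukemia array, and array 1 was within the GMP-labelled range. Rplp1 was lower than in the GMP-labelled leukemia by 0.40 log2 units (difference -0.40 ± 0.13 SE, limma adjusted p = 0.0336), and the DN2-labelled leukemia was above the LSK-labelled by 0.45 ± 0.13 (adjusted p = 0.0100). On LSK-labelled array 1 alone these differences were -0.04 and 0.10. Rplp0 was called only against the DN2-labelled leukemia (0.31 ± 0.10, limma adjusted p = 0.0189), where array 1 alone gave 0.24, and whether the comparisons differ for it was not tested. Rplp2 was not called in either (limma adjusted p = 0.5371 and 0.2224). Rpl12, which sits at the base of the stalk, moved further than the stalk proteins. It read 12.96, 11.79 and 11.73 on the LSK-labelled arrays, 13.07 to 13.25 on the DN2-labelled and 12.99 to 13.06 on the GMP-labelled arrays. All LSK-labelled values were below the other leukemias, with array 1 next to the lowest GMP-labelled value. The difference from the GMP-labelled leukemia was -0.87 ± 0.21 (limma adjusted p = 0.0076), -0.68 without array 2 (adjusted p = 0.0581), -0.65 without array 3 (0.0524) and -0.06 without both (0.8487).

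Rpl11 binds the 5S ribosomal RNA together with Rpl5, and the free complex inhibits Mdm2 and so stabilises p53. Rpl5 had no probe set of its own here. Rpl11 read 13.02, 12.91 and 12.79 on the LSK-labelled arrays, 13.41 to 13.45 on the DN2-labelled arrays, and 13.14, 13.42, 13.41, 13.50 and 13.42 on the GMP-labelled arrays. Here all 3 LSK-labelled arrays, the first included, lay below all 14 arrays of the other groups. The difference from the GMP-labelled leukemia was -0.47 ± 0.11 (limma adjusted p = 0.0064). The DN2-labelled leukemia was above the LSK-labelled by 0.52 ± 0.11 (limma adjusted p = 0.0014). On LSK-labelled array 1 alone the differences were -0.35 and 0.41.

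Rpl10, Rpl11 and Rpl22 are mutated or deleted in part of human T-cell acute leukemias. Rpl10, which joins the large subunit late in its assembly, was not called in any comparison, with 13.35 to 13.56 on the LSK-labelled arrays and 13.44 to 13.64 on the other leukemia arrays. Rpl22, needed for the development of alpha-beta T cells, read 12.53, 11.41 and 11.47 on the LSK-labelled arrays, 12.49 to 12.71 on the DN2-labelled arrays and 12.28 to 12.74 on the GMP-labelled arrays. LSK-labelled array 1 lay inside both ranges and arrays 2 and 3 lay below them. The difference from the GMP-labelled leukemia was -0.77 ± 0.21 (limma adjusted p = 0.0141), -0.57 without array 2 (adjusted p = 0.0993), -0.60 without array 3 (0.0838) and -0.04 without both (0.9388).

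Diamond-Blackfan anaemia is an inherited failure of red cell production caused by loss of 1 copy of a ribosomal protein gene. Of the 13 listed disease genes measured here, 5 were lower in the LSK-labelled than in the GMP-labelled leukemia (median -0.33 over the 13), and 7 were higher in the DN2-labelled than in the LSK-labelled leukemia (median 0.43). These counts stand beside 27 and 42 of the 69 members, and beside 16.5% and 28.4% of all genes. The called genes against the GMP-labelled leukemia were Rpl15 (-0.53), Rpl11 (-0.47), Rps19 (-0.44), Rps7 (-0.37) and Rps10 (-0.36). On LSK-labelled array 1 alone they differed by -0.25, -0.35, -0.07, -0.17 and -0.10 in that order. Rps19, the first gene found for the disease, read 13.68, 13.20 and 13.07 on the LSK-labelled arrays and 13.65 to 13.82 on the GMP-labelled arrays. Array 1 was again within the GMP-labelled range. At the other end, Rps28 differed by -0.04 and Rps29 by -0.06 (limma adjusted p = 0.8239 and 0.6765). Without arrays 2 and 3, the medians over the 13 were -0.04 and 0.10 in the 2 comparisons.

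The members with the largest falls against the GMP-labelled leukemia were Rpl14, Rps27l, Rpl7l1, Rpl36a, Rpl12 and Rpl22l1. Rpl14, a large-subunit protein, read 8.27, 6.04 and 6.04 on the LSK-labelled arrays, 8.66 to 9.32 on the DN2-labelled arrays, 8.34 to 9.84 on the GMP-labelled arrays and 9.34 to 9.59 on healthy cells. Array 1 was just below the other groups and arrays 2 and 3 were more than 2 log2 units below. The difference from the GMP-labelled leukemia was -2.31 ± 0.43 (limma adjusted p = 0.0014), and -0.82 without arrays 2 and 3 (adjusted p = 0.2137). Rpl36a, on the X chromosome, read 13.22, 11.92 and 11.89 on the LSK-labelled arrays and 13.04 to 13.40 on the GMP-labelled arrays. Its difference was -0.94 ± 0.23 (limma adjusted p = 0.0084), -0.73 without array 2 (adjusted p = 0.0630), -0.71 without array 3 (0.0566) and -0.06 without both (0.8752). Rpl22l1 read 12.57, 11.56 and 11.09 against 12.30 to 12.62, a difference of -0.79 ± 0.23 (limma adjusted p = 0.0218). It was -0.70 without array 2 (adjusted p = 0.0994), -0.47 without array 3 (0.1402) and 0.04 without both (0.9289).

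Against the DN2-labelled leukemia, the largest differences were those of Rpl14 (2.15 ± 0.43, limma adjusted p = 9.17e-04), Rpl22l1 (1.08 ± 0.23), Rpl36a (1.05 ± 0.23), Rpl12 (1.00 ± 0.21), Rpl22 (0.85 ± 0.21) and Rpl36 (0.68 ± 0.17, adjusted p = 0.0036). Without LSK-labelled arrays 2 and 3 they were 0.66, 0.25, 0.17, 0.20, 0.12 and 0.11 in that order and no longer called (limma adjusted p from 0.2412 to 0.6867). Rps27l and Rpl7l1, which fell against the GMP-labelled leukemia, were not called here (0.27 ± 0.23 and 0.25 ± 0.26, limma adjusted p = 0.3524 and 0.4614).

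The size of the difference also varied with the signal of the probe set. Over all 132 probe sets of the 70 genes, the median difference between the LSK-labelled and GMP-labelled leukemias was -1.20 for the 19 probe sets with a mean from 8 to 12. It was -0.39 for 19 from 12 to 13, -0.30 for the next 48 and -0.18 for the brightest 27. Below 8 it was -0.56 for 12 probe sets from 5 to 8 and -0.11 for 7 under 5, which are near background. Between 8 and the top of the scale, the median difference was thus larger for dimmer probe sets, for overlapping sets of genes. Within genes, 12 members had both a representing probe set above 12 and another from 8 to 12, and the dimmer probe set was the more negative for 10 of 13 such comparisons. Rpl15 gave -0.53 on the probe set at 13.36 and -1.41 on a second at 9.50, and Rpl22 gave -0.77 at 12.43 and -1.25 at 8.92. The 3 exceptions were Rpl13, which turned from -0.50 at 13.46 to 0.60 at 8.89, Rpl37a (-0.22 at 13.79 and -0.15 at 8.64) and Rpl7 (-0.31 at 13.13 and -0.26 at 11.82). Across the 69 tested members, the level in the GMP-labelled arrays and the difference had a Spearman rho of 0.32, given as a description since the genes share the same arrays. The median difference was -0.30 for members with the pyrimidine motif (n = 25, from -2.31 to -0.11) and -0.29 for matched members without it (n = 30, from -1.05 to -0.02), and the difference between these sets was not tested.

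**Figure D4:**
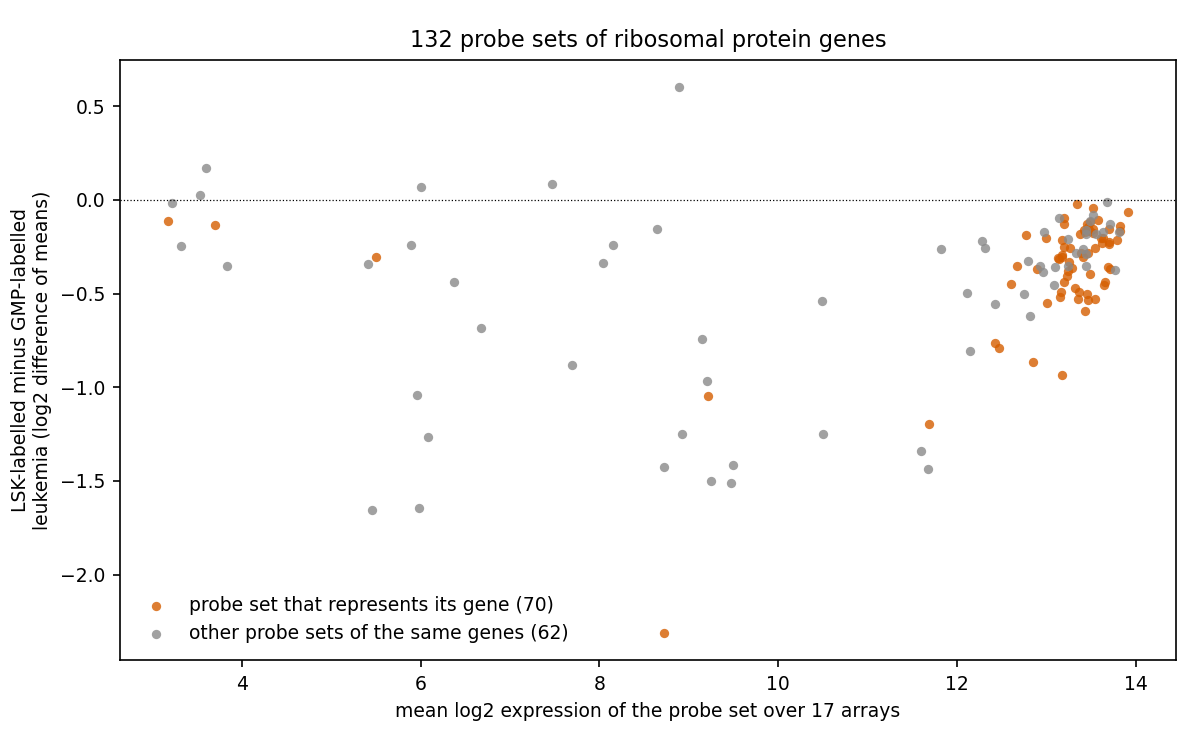
The horizontal axis is the mean log2 signal of each of the 132 probe sets over 17 arrays and the vertical axis is the LSK-labelled minus GMP-labelled leukemia difference. The brightest 27 probe sets lie between -0.53 and -0.01, while those from 8 to 12 range from -2.31 to 0.60, the latter a dim probe set of Rpl13.

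The next question is whether leukemias from a T-cell progenitor and from a myeloid progenitor differ in ribosomal protein expression. In the DN2-labelled minus GMP-labelled comparison 0 of 69 members were higher and 2 were lower, where 21.0% of all genes were called higher and 18.8% lower (39.8% in all). The median member difference was 0.07, positive for 59 of 69 members, against 0.03 for all genes. None of the P stalk, Diamond-Blackfan or T-cell leukemia genes was called, and their differences ran from -0.07 for Rpl10 to 0.11 for Rps24. The members called lower were Rps27l and Rpl7l1.

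Rps27l had the clearest break from the other members. It read 11.53, 10.66 and 10.89 on the LSK-labelled arrays, 11.25, 11.07, 11.72, 11.59 and 10.85 on the DN2-labelled arrays, and 11.75, 12.33, 12.34, 12.34 and 12.34 on the GMP-labelled arrays. The healthy DN2 arrays read 11.76 and 11.89 and the healthy GMP arrays 12.20 and 12.23. All DN2-labelled values were below all GMP-labelled values, with the highest of one group (11.72) next to the lowest of the other (11.75), and both healthy types lay at or above the DN2-labelled range. The difference between DN2-labelled and GMP-labelled leukemias was -0.92 ± 0.20 (limma adjusted p = 0.0017). It stayed called in all 21 alternatives (-1.04 to -0.74, adjusted p from 8.14e-04 to 0.0480), the highest p being that without the 3 DN2-labelled arrays with Itgam near background (-0.74). The other 2 probe sets gave -1.14 and -1.06. The representing probe set and the one at -1.14 carry the suffix x, which marks probes that can match other genes. Signal from the close paralog Rps27 cannot be told apart there. The one at -1.06 carries the suffix a, which marks a match to several transcripts of the same gene. Whether any of these probe sets also reads Rps27 was not tested. The alternative without probe sets of suffix x, s or a kept Rps27l only because it had no other.

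In the LSK-labelled leukemia Rps27l was also lower than in the GMP-labelled leukemia (-1.20 ± 0.23, limma adjusted p = 0.0017). The difference was -0.69 on LSK-labelled array 1 alone (adjusted p = 0.1735, a test on 1 array). Against healthy DN2 cells the DN2-labelled leukemia differed by -0.53 ± 0.26 (limma adjusted p = 0.1747), and the GMP-labelled leukemia differed from healthy GMP by 0.01 ± 0.26 (adjusted p = 0.9910). The difference between these differences was -0.53 ± 0.37 and was not called (limma adjusted p = 0.3952).

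Rpl7l1, a paralog of the large-subunit protein Rpl7 that has been linked to ribosome assembly, read 8.69, 9.19, 9.15, 9.30 and 8.03 on the DN2-labelled arrays. The GMP-labelled arrays read 9.47, 9.27, 9.77, 10.00 and 9.82, and the LSK-labelled arrays 8.84, 8.31 and 8.72. Healthy DN2 cells read 9.33 and 9.58 and healthy GMP 9.60 and 9.62. The DN2-labelled and GMP-labelled ranges overlapped between 9.27 and 9.30, and DN2-labelled array 5 was the lowest of all 17. The difference was -0.80 ± 0.23 (limma adjusted p = 0.0110) and -0.59 without DN2-labelled array 5 (adjusted p = 0.0179). Its other probe sets gave -0.91 and -0.90. The LSK-labelled leukemia differed from the GMP-labelled by -1.05 ± 0.26 (limma adjusted p = 0.0085), by -0.89 without array 2 (adjusted p = 0.0564) and, on LSK-labelled array 1 alone, by -0.83 (0.2114, a test on 1 array).

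**Figure D5:**
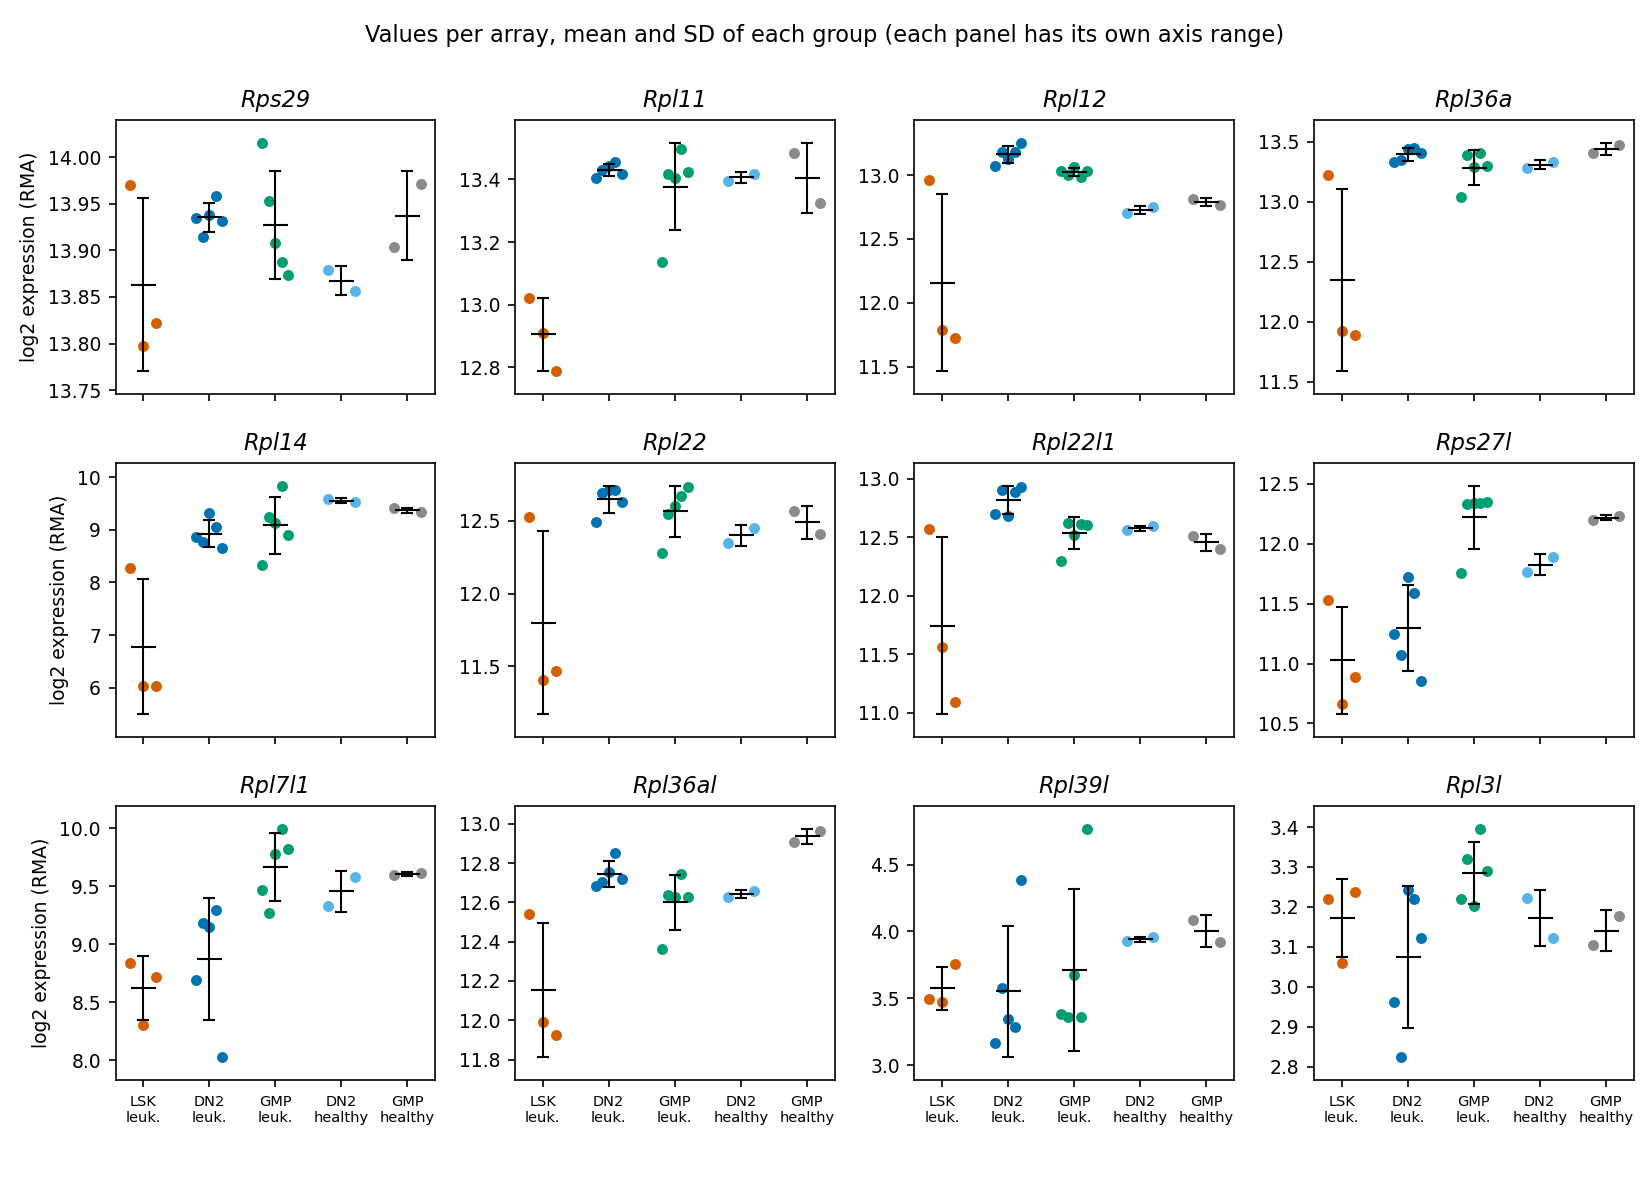
Points are single arrays, and bars are the mean and SD of each group, in log2 RMA units on an axis of its own for each of 12 genes. Rps27l and Rpl7l1 are lower in the LSK-labelled and DN2-labelled leukemias than in the GMP-labelled leukemia, while Rpl12, Rpl36a, Rpl14, Rpl22 and Rpl22l1 are low on 2 of the 3 LSK-labelled arrays.

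Lineage genes moved with this comparison by far larger amounts. The mean of 6 T-cell genes was 9.88 to 10.75 on the DN2-labelled arrays and 4.34 to 4.74 on the GMP-labelled arrays, with 6 of 6 called higher, and 8 of 8 late neutrophil genes were called lower, with means of 3.62 to 5.37 against 12.31 to 13.21. The part of these cell types in the values of Rps27l and Rpl7l1 was not tested.

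Each leukemia was also compared with the healthy cell type named as its origin. Between the DN2-labelled leukemia and healthy DN2 cells, limma called 0 of 69 members (2 at an unadjusted p under 0.05, smallest adjusted p = 0.1086), where 23.2% of all genes were called (9.49% higher and 13.7% lower). The median member difference was 0.10, positive for 58 members, against 0.01 for all genes. Values for single members ran from -0.63 for Rpl14 to 0.44 for Rpl12. Rpl12 read 12.70 and 12.75 on healthy DN2 arrays and 13.07 to 13.25 on the DN2-labelled arrays, without overlap (0.44 ± 0.24, limma adjusted p = 0.2304). The LSK-labelled arrays have a wide spread, and a limma fit without them was added after seeing the data. In that fit 4 members were called higher: Rpl12 (0.44, adjusted p = 0.0101), Rpl13a (0.34, 0.0344), Rpl36 (0.36, 0.0231) and Rps13 (0.31, 0.0486). Rpl13a and Rps13 are named because they passed there. The share of all genes called in that fit is not given here. Whether the added calls were particular to the members or general is therefore not shown.

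Between the GMP-labelled leukemia and healthy GMP, limma called 0 of 69 members (0 at an unadjusted p under 0.05, smallest adjusted p = 0.1547), where 21.2% of all genes were called (8.09% higher and 13.1% lower). The median member difference was 0.01, against -0.12 for all genes. The member with that smallest p was Rpl36al, the paralog of Rpl36a, which read 12.91 and 12.96 in healthy GMP and 12.36 to 12.74 in the GMP-labelled leukemia (-0.34 ± 0.16). In the same comparison, of 73 genes for proteins of the mitochondrial ribosome, a separate machine that translates mitochondrial messages, 17 were lower and 0 higher, with a median of -0.61.

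Healthy DN2 cells and healthy GMP also gave 0 calls among 69 members by limma (0 at an unadjusted p under 0.05, smallest adjusted p = 0.4151), where 11.2% of all genes were called (5.78% higher and 5.40% lower). The median member difference was -0.04, against -0.06 for all genes. Whether the change from healthy cells to leukemia differed between DN2 and GMP was tested with an interaction term (DN2 less GMP). Limma called 0 members (0 at an unadjusted p under 0.05, smallest adjusted p = 0.2487), where 12.7% of all genes were called (6.39% higher and 6.28% lower). The median over the members was 0.10, against 0.09 over all genes. With 2 arrays in each healthy group, the standard error of a single member had a median of 0.13 for leukemia against healthy cells. It was 0.16 between the healthy types and 0.19 for the interaction. These errors limit the size of difference that can be called for 1 gene.

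Paralog pairs were compared as the difference between paralog and partner on each array, with exact two-sided permutation tests over 5 pairs and 3 leukemia comparisons. None of the 15 passed after Benjamini-Hochberg adjustment, and the smallest adjusted p was 0.0670. The design limits this outcome, since the 10 tests with the LSK-labelled arrays cannot go below an exact p of 0.0179, and the 6 tests of Rpl3l and Rpl39l use a paralog whose signal lies near or below the median of all values. Rpl7l1 minus Rpl7 averaged -4.37 ± 0.53 (SD, n = 5) in the DN2-labelled and -3.50 ± 0.26 (SD, n = 5) in the GMP-labelled leukemia. The 10 arrays did not overlap, but the highest DN2-labelled value (-3.904) was next to the lowest GMP-labelled value (-3.895). The exact p was 0.0079, the smallest that 5 against 5 arrays can give. Rpl7 itself differed by 0.08 between these groups.

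Rpl22 is known to repress its paralog Rpl22l1. Rpl22l1 minus Rpl22 averaged 0.17 ± 0.12 (SD, n = 5) in the DN2-labelled leukemia and 0.18 ± 0.05 (SD, n = 2) in healthy DN2 cells. In the GMP-labelled leukemia it was -0.03 ± 0.08 (SD, n = 5) and in healthy GMP -0.04 ± 0.04 (SD, n = 2). The leukemia ranges overlapped (exact permutation p = 0.0238, adjusted p = 0.0714), so the leukemia difference of 0.20 did not pass. Rpl36al minus Rpl36a had group means of -0.68 to -0.65 in the DN2-labelled and GMP-labelled leukemias and healthy DN2 cells, and averaged -0.50 in healthy GMP. Single arrays ran from -0.69 to -0.60 in the DN2-labelled and from -0.74 to -0.66 in the GMP-labelled leukemia. On the LSK-labelled arrays it ranged from -0.68 to 0.07, with Rpl36al at 12.54, 11.99 and 11.92 beside Rpl36a at 13.22, 11.92 and 11.89.

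Genes that act with the ribosomal proteins were read from lists. Of 33 ribosome biogenesis genes, which make and assemble ribosomal RNA, 31 were lower and 0 higher in the LSK-labelled than in the GMP-labelled leukemia, where 16.5% of all genes were lower and 10.3% higher. The median was -1.31, beside -0.30 for the ribosomal proteins, but the signal levels were unlike. The biogenesis list averaged 8.98 to 9.65 on the GMP-labelled arrays, while most ribosomal proteins read above 12, where differences can be compressed. Ribosomal protein probe sets from 8 to 12 had a median of -1.20. These medians therefore do not show which set of genes fell more. Without LSK-labelled arrays 2 and 3, the median of the biogenesis genes was -0.51. Of 16 other translation factors with TOP messages, 11 were lower (median -0.61, and -0.20 without arrays 2 and 3). Npm1, a nucleolar chaperone on that list, read 12.49, 11.16 and 11.05 on the LSK-labelled arrays and 12.61 to 12.89 on the GMP-labelled arrays, so array 1 was below that range by far less than arrays 2 and 3. Of 73 mitochondrial ribosomal protein genes 30 were lower and 1 higher, with a median of -0.55, which was -0.55 without arrays 2 and 3 as well. The mean of the mitochondrial list was 8.65 on LSK-labelled array 1. It was 8.63 on GMP-labelled array 1 and 8.93 to 9.68 on the other GMP-labelled arrays.

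Among 9 regulators of TOP messages, Larp1 was lower in the LSK-labelled leukemia, at 9.79, 8.84 and 8.62 against 9.98 to 10.61 on the GMP-labelled arrays (-1.33 ± 0.22, limma adjusted p = 7.55e-04), with -0.63 on LSK-labelled array 1 alone. Eif4ebp1, an mTOR-controlled inhibitor of cap-dependent translation, read 7.80 to 8.41 on the DN2-labelled arrays, 9.81 to 10.46 on the GMP-labelled arrays, 7.65 and 7.94 in healthy DN2 cells and 9.55 and 9.75 in healthy GMP. It was lower in DN2-labelled than in GMP-labelled leukemia (-2.08 ± 0.18, limma adjusted p = 3.92e-07) and in healthy DN2 than in healthy GMP (-1.86 ± 0.29, adjusted p = 5.20e-04), beside member medians of 0.07 and -0.04. Of the ribosomal proteins outside the symbol rule, Rpsa, a small-subunit protein, was lower in the LSK-labelled than in the GMP-labelled leukemia (-0.52 ± 0.14, limma adjusted p = 0.0131), with -0.08 on LSK-labelled array 1 alone. Fau, the precursor of the small-subunit protein Rps30, was not called in that comparison (0.01 ± 0.10, adjusted p = 0.9541).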

How the data were processed

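The deposited log2 values are the authors' RMA summaries per probe set, made with affy per the submitters' processing notes, from 300 ng of total RNA per array (3′ IVT labelling, per the labels). The sources used here do not give versions or say whether all arrays were normalised together. Symbols came from the platform annotation (28898 probe sets with 1 symbol, of which 28689 matched the RefSeq table of GRCm38.p6). Genes were tested where at least 1 group mean was above 3.83, the median over all values (11625 genes), with limma 3.58.1 in R 4.3.3 on 5 group means and 17 arrays. The procedure was tested on simulated data. The members and lists were chosen with earlier results of these data known. Members named were, per comparison, the 6 called with the largest rise and fall, paralogs and partners, those with extreme spread or mean, and the role lists; related lists by largest differences or known role. Of the 70 members, 56 are represented by probe sets with suffix x, s or a. The deviations of arrays with the same replicate number had a mean correlation of 0.02 over 25 pairs, with single pairs from -0.30 to 0.25. The mean was -0.01 over 86 others, which does not exclude pairing. No 2 arrays were duplicates (highest correlation 0.997). Their number limits the precision.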

Additional observations from a re-analysis of the deposited data

Results flagged for a closer look

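In 6 of 76 sets of 5 values that were examined, 1 array stood apart from the other 4. Each set is a gene, or the median of the members, on the DN2-labelled or GMP-labelled leukemia arrays. The sets share these arrays and are not independent, so the chance rate of about 1 in 20 for a single set is no yardstick for the count. GMP-labelled leukemia array 1 accounts for 5 of these 6. Its median deviation over the ribosomal protein genes was -0.05 (-0.0547), against 0.06 to 0.07 on the other 4. Rpl11 read 13.14 there against 13.41 to 13.50, Rpl37a 13.60 against 13.84 to 13.92, Rps4x 13.29 against 13.41 to 13.43, and Rps27l 11.75 against 12.33 to 12.34. This array also had the highest Mycn of the GMP-labelled arrays (13.15). The sixth is Rpl39l, a paralog near background, at 4.77 on GMP-labelled array 5 against 3.36 to 3.68 on the others.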

How the results depend on the processing

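The median member difference kept its direction in every comparison and alternative run except for the GMP-labelled leukemia against healthy GMP, where it was -0.0211 after a further quantile normalisation. Counts of members called moved by over 1.5 times as follows. The share of all genes called under each setting is not given beside them. For DN2-labelled minus LSK-labelled, 42 became 24 with only the compared groups in the fit, 0 without LSK-labelled arrays 2 and 3 (median 0.12) and 18 without DN2-labelled arrays 2, 4 and 5. For LSK-labelled minus GMP-labelled, 27 became 3 with only the compared groups (Rpl14, Rps27l and Rpl7l1), 44 with a trended robust eBayes, 14 with the replicate number as a block and 0 without LSK-labelled arrays 2 and 3 (median -0.0379). There Rpl22l1 reversed to 0.0402. For the DN2-labelled leukemia against healthy cells, 0 became 3 with only the compared groups (Rpl12, Rpl14, Rpl36), 4 without the LSK-labelled arrays, and 1 each with the trended eBayes (Rpl13a), with the mean of all probe sets (Rpl37), without probe sets of suffix x, s or a (Rpl15) and with the replicate block (Rpl39l). For the GMP-labelled leukemia, 0 became 1 with the mean of all probe sets and without those suffixes (Rps13 in both) and 1 with the block (Rpl39l). For the healthy cells, 0 became 2 with only the compared groups (Rps15a and Rps27l). Members named for passing only here were chosen after their values were seen. The cause was not tested.

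Leaving out single arrays gave 27 to 56 called for DN2-labelled minus LSK-labelled (medians 0.30 to 0.51), and 8 (without LSK-labelled array 2), 9 (without array 3) to 45 (without array 1) for LSK-labelled minus GMP-labelled (medians -0.44 to -0.23). It gave 2 throughout for DN2-labelled minus GMP-labelled (medians 0.05 to 0.08) and 0 for the other comparisons. In DN2-labelled minus GMP-labelled, Rpl22l1 was also called higher without the LSK-labelled arrays (0.29, adjusted p = 0.0373), and Rpl13, chosen after its values were seen, turned from 0.17 to -0.44 (adjusted p = 0.0157) with the mean of all probe sets. No paralog pair was called in any alternative run. The settings without the LSK-labelled arrays and without DN2-labelled arrays 2, 4 and 5 were added after seeing the data. The labels do not say what a replicate number shares, so whether the numbers pair samples is not known. The replicate block left Rps27l and Rpl7l1 called in DN2-labelled minus GMP-labelled leukemia. Differences of members near the highest signals, or near the median of all values (3.83), can be understated, which was not tested.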
